A study of Mus musculus with 6 samples.

Results

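The potassium channel genes of the E18.5 mouse cortex were examined in control and Ybx1-deficient embryos. They were taken as the rows of the table whose gene symbol begins with Kcn, and were chosen by a measured value, a mean of at least 0.5 TPM (a transcript level scaled by transcript length and library size) over the 3 control or the 3 cKO libraries. Of 92 Kcn rows among 17348 genes, 75 met this rule. They comprised 35 of 40 pore-forming genes of the voltage-gated (Kv) class, 11 of 15 inward rectifiers (Kir), 8 of 12 two-pore (K2P) channels, 7 of 8 of the calcium-activated (KCa) class, 13 of 16 auxiliary subunits, and Kcnrg. All 75 met the minimum in both groups, so none was kept through 1 group only. The members nearest above the minimum were Kcnj5, at 0.547 TPM in controls and 0.697 in cKO, and Kcne2, at 0.630 and 0.580. The rows nearest below it were Kcnk4, at 0.467 and 0.493 TPM, and Kcnj15, at 0.260 and 0.453.

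Potassium channels let potassium ions leave or enter the cell and so set the resting membrane potential and the shape and rate of action potentials. Kv channels open on depolarization, Kir channels conduct best near or below the resting potential, K2P channels carry leak current, and most KCa channels open when internal calcium rises. Auxiliary subunits such as the Kv beta subunits, the KChIP proteins and the BK beta subunits change the gating or surface delivery of the pore-forming subunits. In the cortex, Kv and KCa currents grow as young neurons mature.

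The data comprised 6 RNA-seq libraries of dissected cortices, 3 from control littermates (Ctrl, labelled WT) and 3 from conditional knockouts (cKO, Nestin-Cre, Ybx1 fl/fl), all at E18.5 on a C57BL/6J background. The study names its controls Ybx1 fl/fl in general but calls those of the RNA-seq wild type, so whether these 3 libraries carried the floxed allele is not given in the sources used here. The Nestin promoter that drives Cre in the cKO is active in neural progenitors, so that their progeny carry the deletion. Ybx1, an RNA- and DNA-binding protein that reads m5C on mRNA, was at 1015, 1297 and 956 CPM (counts scaled by library size with TMM factors) in the Ctrl libraries and at 24.0, 24.8 and 24.9 CPM in the cKO libraries (log2 fold change -5.47 ± 0.16 SE, edgeR adjusted p = 7.0e-07). Library totals were 15091951 to 16885451 estimated counts, and 3 counts corresponded to 0.176 to 0.206 CPM. The Y-linked Eif2s3y and Ddx3y were at 41.8 to 109 CPM in the Ctrl libraries and at no more than 1 count in any cKO library, so sex and genotype cannot be told apart; 2 members, Kcnd1 and Kcne1l, lie on the X chromosome. Ctrl replicate 2 stood apart from the other 5 libraries: its counts fell by 0.217 on the log2 scale with each doubling of transcript length, against slopes between 0.022 and 0.089 in the others, and the members took 0.154% of its counts against 0.187% to 0.205%. In bulk tissue, fewer cells of a type and less RNA per cell cannot be told apart.

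By transcript level, Kcnmb4, the neuronal BK beta subunit, was among the most abundant members, at 58.8, 78.3 and 66.0 TPM in the Ctrl libraries, with a mean of 67.7 ± 9.83 TPM (SD, n = 3). This rank depends on length: the deposited values imply a Kcnmb4 transcript of 818 bases, against 3324 annotated exon bases. In CPM, which is not scaled by length, its Ctrl mean was 25.9, under those of Kcnk2 (62.0) and Kcnc1 (80.5). Kcnk2, the mechanosensitive leak channel TREK-1, was at 41.5 ± 1.06 TPM. Next among the members described here were Kcnn2 (SK2, 38.1 ± 7.48 TPM), Kcnj11 (Kir6.2, the pore of the ATP-sensitive channel, 29.4 ± 1.27), Kcnip3 (a KChIP, 28.1 ± 3.37) and Kcnq3 (Kv7.3, a subunit of the M-current that restrains repetitive firing, 25.9 ± 13.5). Neighbours in this order from Kcnj11 to Kcnq3 differed by less than the larger of their SD values, and the Ctrl libraries of Kcnq3 were at 27.9, 11.6 and 38.3 TPM. In all, 11 members reached 20 TPM in controls and 19 were under 2 TPM. The Kv class accounted for 44.9% of the summed member TPM in Ctrl and 45.8% in cKO, auxiliary subunits for 23.9% and 22.4%, and the Kir, K2P and KCa classes for between 9.68% and 10.8% each in either group.

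**Figure D1:**
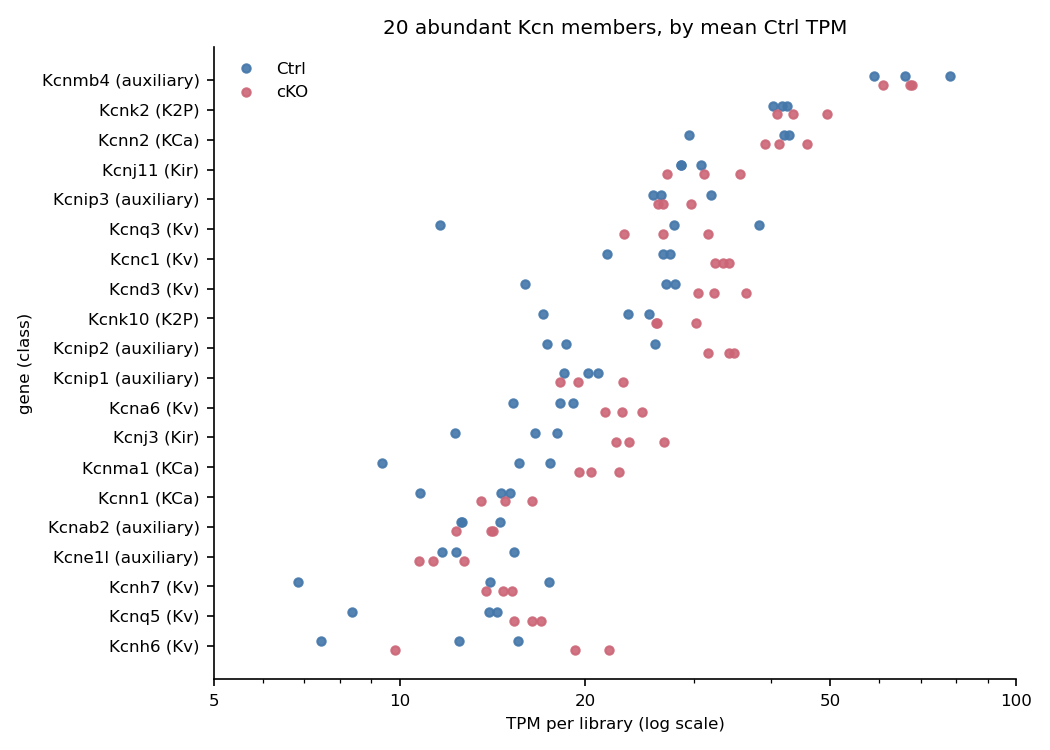
TPM in each library (x axis, log scale) of 20 abundant members, ordered from top to bottom by mean Ctrl level, with Ctrl libraries in blue and cKO libraries in red. Kcnmb4 lies above the other members shown in every library, and the 3 cKO points of Kcnc1, Kcnd3, Kcnk10, Kcnip2, Kcna6, Kcnj3, Kcnma1 and Kcnq5 lie to the right of all 3 Ctrl points. In TPM the median of all genes is itself shifted by 0.15 on the log2 scale toward cKO, and in CPM the groups of Kcnk10 and Kcnq5 overlap.

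The comparison of cKO with Ctrl asked whether loss of Ybx1 in neural cells was accompanied by a different level of any of these genes. Of the members, 73 passed edgeR's filter on low counts, and Kcne2 and Kcnk12 did not. None of the 73 differed at an adjusted p under 0.05 in edgeR's quasi-likelihood test, where 0.0737% of all 13570 genes tested did. DESeq2 also called 0 members, and called 99 of the 13570 genes. It gave no adjusted p for some members, Kcnj4 among them, so these were not put to that threshold. At an unadjusted p under 0.05 in edgeR, 11 members were higher and 1 was lower in cKO. The same threshold was passed by 3.14% of all genes tested in the higher direction and by 3.49% in the lower, so 15.1% of the members were higher at this level against 3.14% of all genes. The CPM values of the 2 groups did not overlap for 13 members with cKO higher and 3 with cKO lower, against 7.35% and 6.93% of all genes, and 17.8% of members were in the first set. The median log2 fold change was 0.17 over the members, with 44 above 0 and 29 below, and 0.0027 over all genes tested. The median of all genes depended on the scale: with a pseudocount of 0.5, the log2 difference of group means had a median over all genes of 0.15 in TPM, 0.05 in FPKM and 0.01 in CPM, while that of the members was 0.28, 0.14 and 0.15. All fold changes, SE and adjusted p-values below are from edgeR, and none passed adjustment unless stated.

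**Figure D2:**
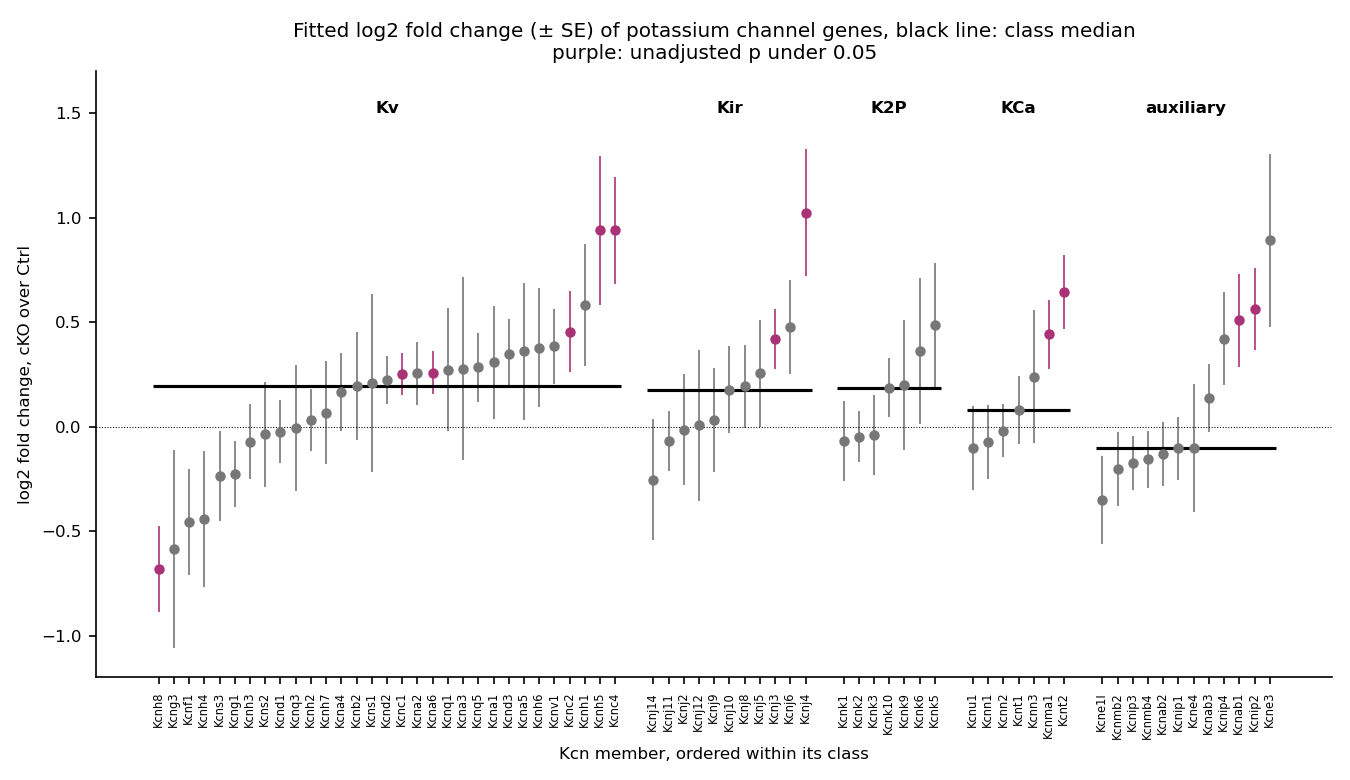
Fitted log2 fold change of cKO over Ctrl (y axis, bars ± SE) for tested members of the 5 classes, ordered within each class, with the median of all tested members of the class as a black line and members at an unadjusted p under 0.05 in purple. The class medians of Kv, Kir and K2P lie near 0.2, that of KCa near 0.08 and that of the auxiliary subunits below 0.

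Of the 12 members at an unadjusted p under 0.05, 9 had groups that did not overlap in CPM, which for 3 against 3 gives an exact two-sided permutation p of 0.1, the smallest this design allows. All 12 kept their direction in all 13 alternative analyses. Kcnc4, Kcnt2, Kcnj4 and Kcnh8 also kept an unadjusted p under 0.05 in all 13, and they are described first in their classes. The 12 were chosen by their p in these libraries, and each alternative refits the same libraries, in full or with a library left out. Lack of overlap, a kept direction or a kept p is therefore no independent support for them.

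**Figure D3:**
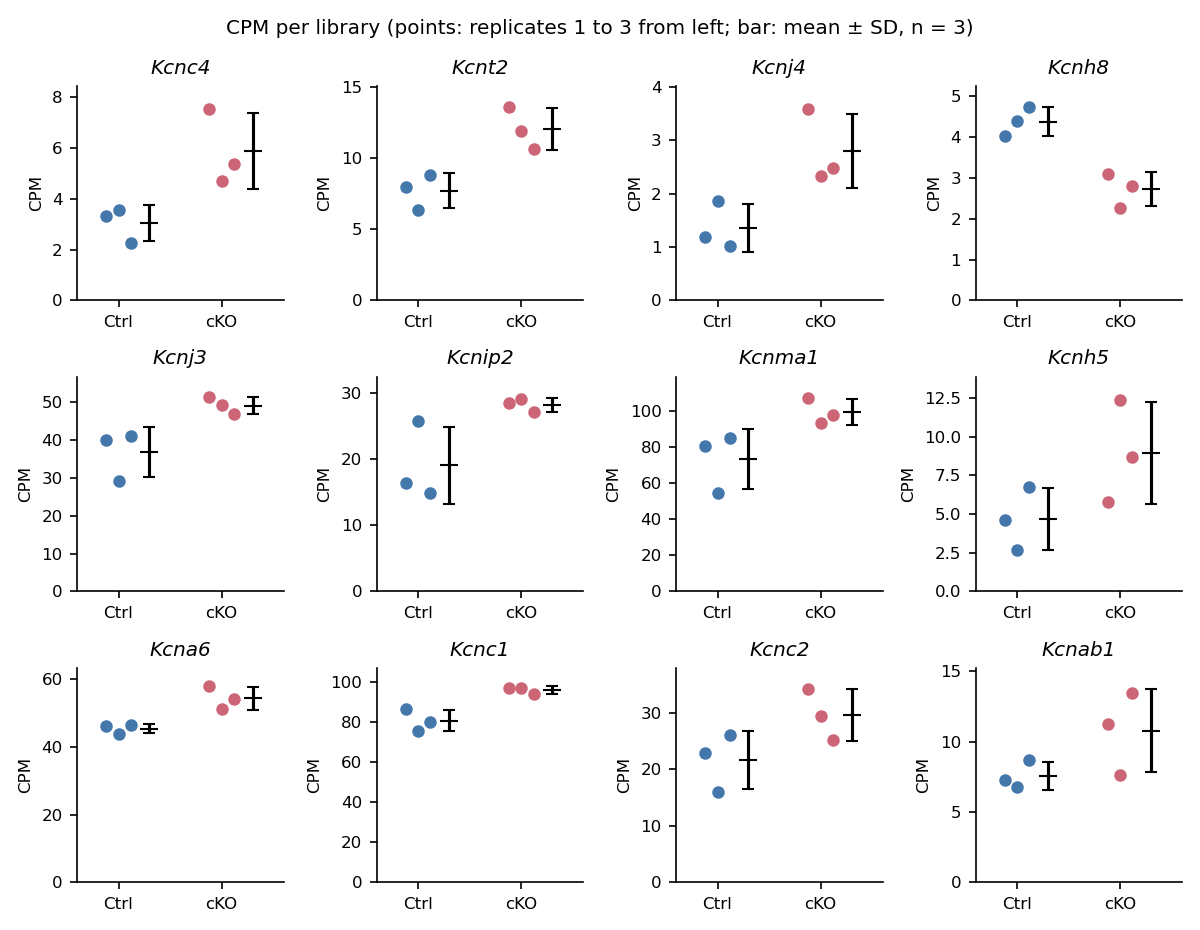
CPM (y axis from 0, 1 panel per gene) of the 12 members with an unadjusted p under 0.05, ordered by p, with a point for each library and the mean ± SD (n = 3) beside it. Kcnh8 is the gene with lower values in cKO, and in Kcnh5, Kcnc2 and Kcnab1 the 2 groups overlap.

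In the Kv class, 23 of 35 members were above 0 and 12 below, the median log2 fold change was 0.19, and 5 members were higher and 1 lower at an unadjusted p under 0.05. Kcnc4 encodes Kv3.4, a fast-inactivating channel of the Kv3 family, which allows brief spikes and rapid firing. It measured 3.32, 3.57 and 2.26 CPM in Ctrl and 7.55, 4.72 and 5.36 CPM in cKO, so every cKO library was above every Ctrl library (1.92-fold, log2 fold change 0.94 ± 0.26 SE, edgeR adjusted p = 0.465). Kcnc1 and Kcnc2, non-inactivating members of this family, were also higher. Kcnc1 (Kv3.1), the most abundant of them, measured 86.2, 75.6 and 79.8 CPM in Ctrl and 97.1, 96.9 and 93.7 in cKO (1.19-fold, adjusted p = 0.686). Kcnc2 (Kv3.2) measured 22.9, 16.0 and 26.0 CPM in Ctrl and 34.2, 29.5 and 25.2 in cKO, where the lowest cKO library lay under the highest Ctrl library (1.37-fold, adjusted p = 0.731).

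All 6 Kv1 (shaker) members, which set spike threshold in axons, had log2 fold changes above 0, between 0.17 and 0.36, with a median of 0.27. Without Ctrl replicate 2 the median was 0.10 and 5 of 6 were above 0, Kcna3 (Kv1.3) being at -0.14 against 0.28 with all libraries. Kcna6 (Kv1.6) was the one at an unadjusted p under 0.05. It measured 46.1, 43.9 and 46.5 CPM in Ctrl and 57.9, 51.1 and 54.1 CPM in cKO, with no overlap (log2 fold change 0.26 ± 0.10 SE, adjusted p = 0.681). With the correction for transcript length described below its adjusted p was 0.641 and its unadjusted p no longer under 0.05, and 39.6% of its annotated exon bases are shared with another gene, Gm26673. The strandedness of the counting was not stated, so reads from shared exon bases cannot be told apart. Kcna2 (Kv1.2) also had groups that did not overlap, at 14.3 ± 2.33 CPM in Ctrl and 17.1 ± 0.383 in cKO (adjusted p = 0.819). Its log2 fold change of 0.26 was 0.07 with the length correction and 0.13 without Ctrl replicate 2.

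Among the Kv4 genes, which carry the A-type current of dendrites, Kcnd3 measured 85.5, 56.4 and 83.9 CPM in Ctrl and 105, 88.7 and 93.8 CPM in cKO. The groups did not overlap (adjusted p = 0.777). Kcnd2 was at 24.2 ± 1.92 CPM in Ctrl and 28.2 ± 0.721 in cKO, also without overlap (adjusted p = 0.796). The X-linked Kcnd1 had a log2 fold change of -0.02.

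The ether-a-go-go families (Kv10 to Kv12) held both a high and a low extreme. Kcnh8 (Kv12.1) measured 4.01, 4.39 and 4.73 CPM in Ctrl and 3.10, 2.27 and 2.81 CPM in cKO, and was lower in every cKO library than in any Ctrl library (0.623-fold, log2 fold change -0.68 ± 0.20 SE, edgeR adjusted p = 0.510). It was the only member lower at this level. Kcnh5 (Kv10.2) measured 4.64, 2.69 and 6.71 CPM in Ctrl and 5.76, 12.3 and 8.68 CPM in cKO, and the groups overlapped (1.92-fold, adjusted p = 0.656). The other 6 had log2 fold changes between -0.44 and 0.58 with no p under 0.05.

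No Kv7 gene, the family of the M-current, had an unadjusted p under 0.05. Kcnq3 measured 136, 68.6 and 187 CPM in Ctrl and 113, 126 and 150 in cKO, where Ctrl replicate 2 was the lowest library of either group (log2 fold change -0.0070 ± 0.30 SE). Without that library its log2 fold change was -0.31 (adjusted p = 0.414, the lowest over the 13 alternatives, where the highest was 0.9999). Kcnq5 had a log2 fold change of 0.28 ± 0.17 SE (adjusted p = 0.815).

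The 7 electrically silent Kv subunits, which assemble with Kv2 subunits, were the Kv family with the lowest median, -0.23, with 2 above 0 and 5 below and none at an unadjusted p under 0.05. Kcng3 (Kv6.3) depended on a single library. It measured 11.9, 2.99 and 15.9 CPM in Ctrl and 5.63, 7.55 and 7.22 CPM in cKO, with Ctrl replicate 2 under all cKO libraries and the other Ctrl libraries above them. With all 6 libraries the log2 fold change was -0.59 ± 0.47 SE (adjusted p = 0.860). Without Ctrl replicate 2 it was -1.03 at an edgeR adjusted p of 0.0316, the lowest over the 13 alternatives, where the highest was 0.9999.

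Among inward rectifiers, 8 of 11 members were above 0 and 3 below, the median was 0.18, and 2 were higher at an unadjusted p under 0.05. Kcnj4 (Kir2.3), a strong rectifier of forebrain neurons, had the largest log2 fold change of any member. It measured 1.19, 1.87 and 1.03 CPM in Ctrl and 3.59, 2.33 and 2.49 CPM in cKO, without overlap and well above the level of 3 counts (2.03-fold, log2 fold change 1.02 ± 0.30 SE, edgeR adjusted p = 0.490). The 4 G protein-gated (GIRK) genes had a median of 0.34 and log2 fold changes above 0, although that of Kcnj9 (GIRK3) was 0.03, and was -0.04 without Ctrl replicate 2, -0.22 without cKO replicate 1 and -0.0045 with the correction for transcript length. Kcnj3 (GIRK1) measured 39.9, 29.2 and 41.2 CPM in Ctrl and 51.3, 49.3 and 46.8 CPM in cKO (1.34-fold, adjusted p = 0.596), and 31.1% of its annotated exon bases are shared with Gm26794. Kcnj6 (GIRK2) was at 3.52 ± 0.716 CPM in Ctrl and 4.88 ± 0.793 in cKO, again without overlap (adjusted p = 0.778). Kcnj5 (GIRK4) was at 1.07 ± 0.105 and 1.28 ± 0.116 CPM, with overlap (adjusted p = 0.885).

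The most abundant Kir gene in TPM, Kcnj11, was at 38.9 ± 5.43 CPM in Ctrl and 37.1 ± 5.02 in cKO (log2 fold change -0.07 ± 0.14 SE). Kcnj2 (Kir2.1), the strong rectifier of many excitable cells, was at 23.5 ± 6.19 and 23.3 ± 8.34 CPM (-0.01 ± 0.27 SE). Kcnj10 (Kir4.1), the potassium-buffering channel of astrocytes, measured 21.7, 15.2 and 12.9 CPM in Ctrl and 22.1, 16.6 and 17.6 in cKO (0.18 ± 0.21 SE). Kcnj8 (Kir6.1), a pericyte channel in brain, was at 9.77 ± 2.30 and 11.2 ± 1.40 CPM (0.19 ± 0.20 SE). The largest negative value of the class was that of Kcnj14 (Kir2.4), -0.25 ± 0.29 SE, and 0.0015 without Ctrl replicate 2.

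None of the 7 tested K2P channels had an unadjusted p under 0.05 or groups without overlap in CPM, and the class had a median of 0.19 with 4 above 0 and 3 below. Kcnk2, its most abundant member in TPM, measured 60.9, 69.3 and 55.8 CPM in Ctrl and 66.2, 58.9 and 55.0 CPM in cKO, and the groups overlapped (log2 fold change -0.05 ± 0.12 SE, adjusted p = 0.952). Kcnk10 (TREK-2), whose mean CPM was above that of Kcnk2 in both groups, was at 72.6 ± 12.1 CPM in Ctrl and 82.6 ± 7.25 in cKO (0.19 ± 0.14 SE, adjusted p = 0.856). Kcnk1 (TWIK-1) was at 11.1 ± 2.67 and 10.6 ± 0.658 CPM. The largest value was that of Kcnk5 (TASK-2), 0.48 ± 0.30 SE (adjusted p = 0.823).

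In the KCa class, Kcnt2 (Slick), a sodium- and chloride-sensitive channel of this gene family, had the lowest p. It measured 7.96, 6.38 and 8.84 CPM in Ctrl and 13.6, 11.9 and 10.7 CPM in cKO, with every cKO library above every Ctrl library (1.56-fold, log2 fold change 0.64 ± 0.18 SE, edgeR adjusted p = 0.465). Kcnma1, the pore of the large-conductance BK channel, measured 80.4, 54.3 and 85.0 CPM in Ctrl and 107, 93.0 and 97.9 CPM in cKO, also without overlap (1.36-fold, adjusted p = 0.645). Of the small-conductance (SK) genes, Kcnn2 was at 36.1 ± 4.18 CPM in Ctrl and 35.6 ± 2.93 in cKO (log2 fold change -0.02 ± 0.13 SE), and Kcnn1 had a log2 fold change of -0.07 ± 0.18 SE. Over the 7 members the median was 0.08, with 4 above 0 and 3 below, the lowest being Kcnu1 (Slo3) at -0.10.

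Auxiliary subunits were the class whose median lay below 0, at -0.10, with 5 of 12 tested members above 0. Kcnip2 (KChIP2), which raises the surface level of Kv4 channels, measured 16.4, 25.8 and 14.9 CPM in Ctrl and 28.4, 29.1 and 27.1 CPM in cKO. All cKO libraries were above all Ctrl libraries, and Ctrl replicate 2 was the highest of its group (1.48-fold, log2 fold change 0.56 ± 0.20 SE, edgeR adjusted p = 0.607). Without Ctrl replicate 2 its log2 fold change was 0.84 at an edgeR adjusted p of 0.00576, the lowest over the 13 alternatives, where the highest was 0.9999. Kcnab1 (Kv beta 1), a subunit that speeds inactivation of Kv1 channels, measured 7.27, 6.79 and 8.70 CPM in Ctrl and 11.3, 7.62 and 13.5 in cKO, with overlap (1.42-fold, adjusted p = 0.748).

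Both BK beta subunits were below 0. Kcnmb4 was at 25.9 ± 3.81 CPM in Ctrl and 23.2 ± 1.13 in cKO (log2 fold change -0.16 ± 0.14 SE, adjusted p = 0.862), while the BK pore gene Kcnma1 was higher as given above, and 31.5% of the exon bases of Kcnmb4 are shared with annotated antisense transcripts. Kcnip3 was at 32.6 ± 4.07 and 29.0 ± 1.97 CPM (-0.17 ± 0.13 SE). The extremes of the class were Kcne3, at 0.752, 0.527 and 0.754 CPM in Ctrl and 1.92, 0.692 and 1.15 in cKO (0.89 ± 0.41 SE, adjusted p = 0.775), and the X-linked Kcne1l, at -0.35 ± 0.21 SE (adjusted p = 0.819). Kcne2, abundant in choroid plexus, was at 0.128 to 0.502 CPM in all 6 libraries, and the 5 choroid plexus markers together summed to 0.126 to 0.619 CPM.

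**Figure D4:**
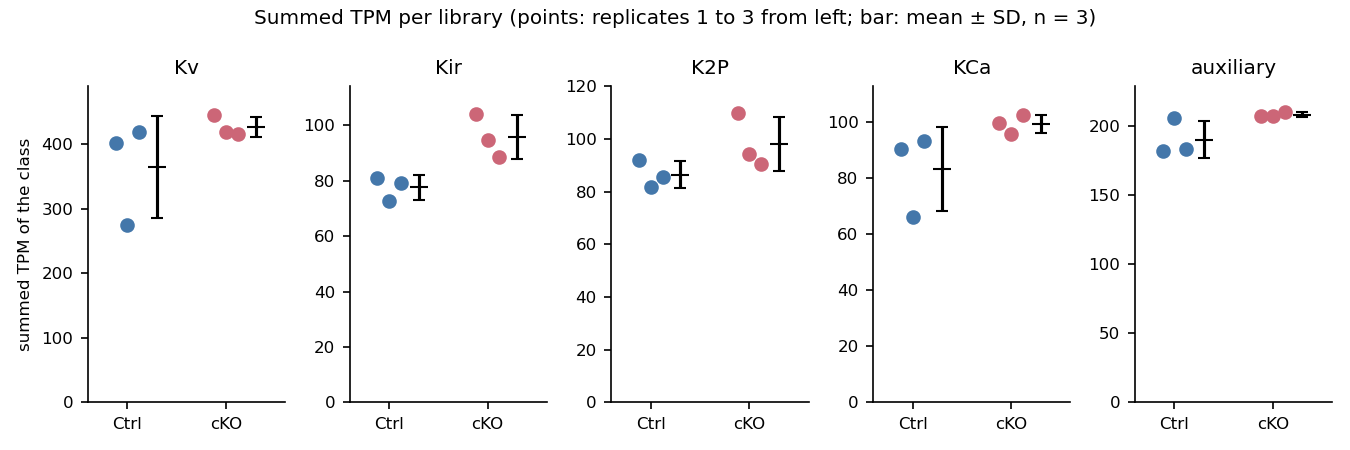
Summed TPM of the members of each class (y axes from 0, 1 panel per class) in each library, with the mean ± SD (n = 3) beside the points. Ctrl replicate 2, the middle Ctrl point, is the lowest Ctrl library in Kv, Kir, K2P and KCa and the highest in auxiliary subunits.

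Summed per class, the members took 806 ± 89.6 TPM in Ctrl and 931 ± 33.2 in cKO. The Kir sum was 81.1, 72.6 and 79.3 TPM in Ctrl and 104, 94.7 and 88.4 TPM in cKO. The KCa sum was 90.3, 66.1 and 93.4 TPM in Ctrl and 99.8, 96.0 and 103 TPM in cKO. The auxiliary sum was 181, 205 and 183 TPM in Ctrl and 207, 207 and 210 in cKO. These 3 sums did not overlap between the groups, whereas the Kv sum did, at 402, 275 and 419 TPM in Ctrl and 445, 419 and 416 in cKO, as did the K2P sum. The sums include the shift of 0.15 on the log2 scale that the median of all genes showed in TPM, and with that shift taken off the cKO libraries all 5 class sums overlapped.

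The class medians were of the size of the differences between libraries and moved with transcript length. The SD between libraries of the median of a class, within a group, was 0.11 to 0.15 on the log2 scale. The members are longer than other genes, with a median length implied by the counts and FPKM of 3782 bases against 2824 for all genes tested, and the Kv median was 4992 bases and the auxiliary median 2218. Across all genes tested, log2 length and log2 fold change had a Pearson r of 0.26 and a Spearman rho of 0.37, and across the 73 members 0.10 and 0.24, over points that share the same 6 libraries. When a smooth length trend was removed from each library, the member median went from 0.17 to 0.04, the Kv median to 0.07, Kir to 0.09, K2P to 0.06, KCa to -0.0046 and auxiliary to -0.05. In that fit 14 members had an unadjusted p under 0.05, where 10.6% of all genes did, and 10 of the 12 genes named above were among them, Kcna6 and Kcnc1 being the exceptions.

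**Figure D5:**
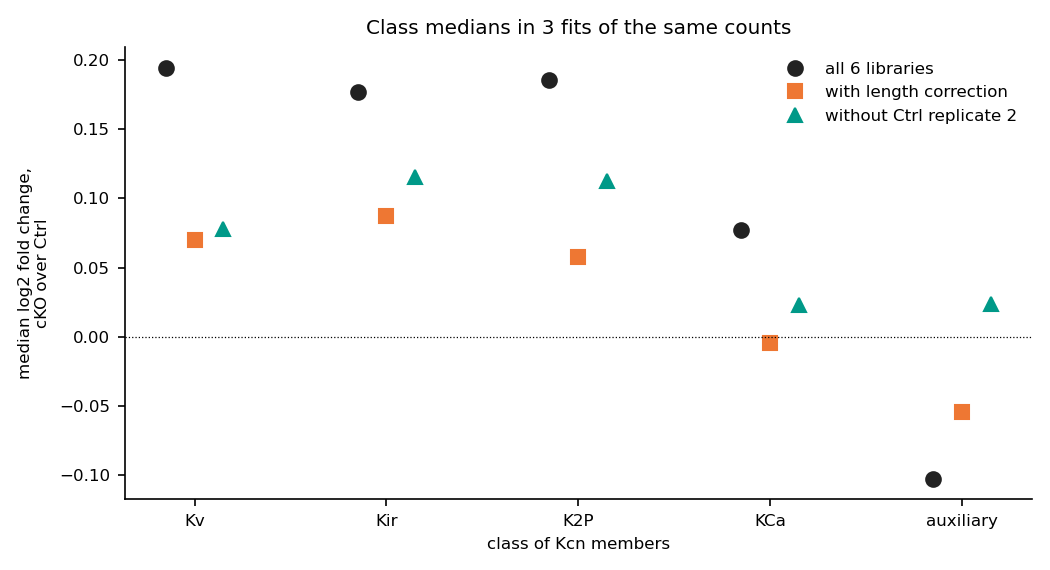
Median log2 fold change of cKO over Ctrl (y axis) for the 5 classes in the fit of all 6 libraries (black circles), with a correction for transcript length (orange squares) and without Ctrl replicate 2 (green triangles). The Kv, Kir and K2P medians, between 0.18 and 0.19 in the first fit, lie between 0.06 and 0.12 in the others, and the auxiliary median ranges from -0.10 to 0.02.

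Leaving out a library moved some medians as much. Without Ctrl replicate 2 the member median was 0.07, the Kv median 0.08, the Kir median 0.12, the K2P median 0.11, the KCa median 0.02 and the auxiliary median 0.02. Without cKO replicate 1 the member median was 0.07, the Kir median 0.05, the K2P median -0.12, the KCa median 0.04 and the auxiliary median -0.0023. The KCa median was also 0.23 without Ctrl replicate 3, 0.15 without cKO replicate 2, 0.04 without cKO replicate 3 and 0.05 without Ctrl replicate 1. The auxiliary median without cKO replicate 2 was -0.05. The order of the classes differed between these fits. Of single genes, Ctrl replicate 2 moved several by more than 1.5 times: without it the log2 fold change was 0.18 for Kcnd3 against 0.35, 0.28 for Kcnc2 against 0.45, 0.27 for Kcnma1 against 0.44, 0.28 for Kcnj3 against 0.42, 0.11 for Kcnq5 against 0.28 and 0.07 for Kcnk10 against 0.19. That of Kcnh5 was 0.66 without it, against 0.94. Other genes moved away from 0 without it. Among them were Kcnj8 at 0.38 against 0.19, Kcnk5 at 0.72 against 0.48 and Kcnip2 at 0.84 against 0.56. Kcnj4 was at 1.33 against 1.02, and Kcng3 at -1.03 against -0.59.

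The promoters of 3 members with a higher level in cKO are shown because Ybx1 was named for the Y-box, a promoter element whose core is CCAAT, read as ATTGG on the opposite strand. No binding was measured in these data. The paper reports Ybx1 mainly in the cytoplasm of cultured neural progenitors and proposes that a role in transcription may be doubtful. It measured binding of Ybx1 to RNA, in cortex of an earlier stage. Each sequence is the 250 bases before the RefSeq start on the gene's strand (GRCm38.p6), 5′ to 3′, with CCAAT or ATTGG in capitals. That of Kcnt2 is chr1:140245468-140245717 on the plus strand, that of Kcnj4 chr15:79505242-79505491 on the minus strand, and that of Kcnip2 chr19:45816064-45816313 on the minus strand.
Kcnt2: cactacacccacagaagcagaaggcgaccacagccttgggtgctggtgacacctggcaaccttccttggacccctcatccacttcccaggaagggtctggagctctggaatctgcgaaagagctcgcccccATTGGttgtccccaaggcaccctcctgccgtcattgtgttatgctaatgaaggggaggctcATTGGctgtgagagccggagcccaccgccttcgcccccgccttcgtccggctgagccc
Kcnj4: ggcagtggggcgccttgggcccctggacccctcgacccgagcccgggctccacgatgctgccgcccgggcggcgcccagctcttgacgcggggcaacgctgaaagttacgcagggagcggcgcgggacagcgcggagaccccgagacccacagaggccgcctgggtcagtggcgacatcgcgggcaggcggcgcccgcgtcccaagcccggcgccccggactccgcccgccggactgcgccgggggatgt
Kcnip2: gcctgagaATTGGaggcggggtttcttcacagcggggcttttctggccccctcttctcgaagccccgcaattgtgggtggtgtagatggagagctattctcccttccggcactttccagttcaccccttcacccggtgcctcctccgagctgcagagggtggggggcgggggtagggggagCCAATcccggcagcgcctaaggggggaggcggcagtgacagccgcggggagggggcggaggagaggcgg

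The Kcnt2 window held ATTGG with its first base 119 and 58 bases before the start, the Kcnip2 window held ATTGG at 242 and CCAAT at 69, and the Kcnj4 window, with a GC content of 77.2%, held neither. These positions are relative to the RefSeq start. The GENCODE M21 gene of Kcnt2 starts further downstream, at chr1:140246158. Of the 75 members, 53 had a RefSeq promoter in the table used. At least 1 window with these letters was present for 19 of the 53 genes, or 35.8%, for 4 of the 12 members at an unadjusted p under 0.05, or 33.3%, and for 37.5% of all 27025 genes. A match of 5 letters is a description and not a site.

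Other genes of potassium handling were read from a list of 32 partner genes, of which 29 were tested. The median log2 fold change of the partner genes was 0.17, and that of all genes tested 0.0027. Their median implied length was 4606 bases, against 2824 for all genes tested. At an unadjusted p under 0.05, 3 were higher and 1 was lower, and none passed adjustment. The higher ones were 10.3% of those tested, against 3.14% of all genes, of which 3.49% were lower. Among those higher were Dpp10, a transmembrane partner of Kv4 channels (0.49 ± 0.19 SE, adjusted p = 0.671), and the sodium-potassium pump subunit Atp1b1 (0.52 ± 0.20 SE, adjusted p = 0.645). The lower one was Dlg4, the PSD-95 scaffold that binds Kv1 and Kir2 tails (-0.25 ± 0.11 SE, adjusted p = 0.731). Abcc9, the sulfonylurea receptor that pairs with Kcnj8, had a log2 fold change of 0.27 ± 0.24 SE.

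Markers of the cell types that a cortical dissection can hold were read in the same fit. Of 68 tested marker genes in 12 lists, 5 were higher and 0 lower at an unadjusted p under 0.05, and their median log2 fold change was 0.0013. The higher ones were 7.35% of the tested markers, against 3.14% of all genes. The 5 were Slc17a7 (0.73 ± 0.10 SE, adjusted p = 0.0722), the vesicular glutamate transporter of maturing projection neurons, Pax6 of radial glia (0.31), Aqp4 of astrocytes (0.74), Cdh5 of endothelium (0.41) and Pdgfrb of mural cells (0.27). Of the 7 radial glia markers, however, 2 were above 0 and 5 below, with a median of -0.13. Above 0 were 4 of 6 astrocyte markers, 4 of 5 endothelial markers and 4 of 5 mural markers. The 8 projection neuron markers summed to 2830 to 3411 CPM in Ctrl and 2755 to 3064 CPM in cKO, with 2 of 8 above 0. The 7 striatal markers, of a neighbouring region that uses Kcnj4 and Kcnip2, summed to 105 to 126 CPM in Ctrl and 111 to 143 in cKO, with 3 of 7 above 0. The 6 astrocyte markers summed to 269 to 314 CPM in Ctrl and 300 to 351 in cKO, and the 5 mural markers to 171 to 223 and 204 to 231. The part of these differences in the values of Kcnj4, Kcnip2, Kcnj10 or Kcnj8 was not tested.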

How the data were processed

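Messenger RNA of 3 Ctrl and 3 cKO cortices at E18.5 was sequenced by the authors on the DNBSEQ platform. The submitters' processing notes name the build GRCm38 (mm10) and the tools HISAT2 2.2.1, Bowtie2 2.4.5 and RSEM 1.3.1, without their roles, and strandedness is not given in the sources used here. The table deposited by the authors has 27 columns, of which 18 were used, giving each gene an estimated count and its TPM and FPKM in every library. The estimated counts deposited by the authors are not normalized between libraries, and 89.4% are whole. The TPM values deposited by the authors are scaled by length and sum to the same total in each library, and the FPKM values of the authors are scaled by length and library total. The 6 columns of the authors' group means were not used.

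Libraries were grouped by the submitters' titles. Nothing says whether a replicate is 1 embryo or several. Estimated counts were rounded to whole numbers, filtered with filterByExpr, scaled by TMM and tested by the quasi-likelihood method of edgeR 4.0.16, with Benjamini-Hochberg adjustment over all 13570 genes tested, in R 4.3.3. The SE is the log2 fold change divided by the root of F, and CPM values use the TMM-scaled totals. Fold changes without a further p are described only. Totals of 15091951 to 16885451 and the floor of 3 counts cover counting error only; the common biological coefficient of variation was 0.147, and replicates differed by a chi-square per degree of freedom of 3.52 to 65.4, so none was a duplicate. The members and lists were chosen with earlier results of these data known. Members named are those at an unadjusted p under 0.05 or adjusted in any alternative, the 3 highest levels and the extremes of each class, those next to the TPM minimum and genes with a textbook role. Some items withheld for evaluation are not reported here. Kcnd1 and genes given to complete a family were named after their values were seen, as were Kcnk12 and Kcnrg. As alternatives, DESeq2 1.42.0, RLE scaling, a block on replicate number, no filter, a filter of CPM above 1 in 2 libraries, a length correction (mgcv 1.9.3) with and without the block, and leaving out each library were used. Coordinates and shared exons are from GENCODE M21, and promoters from RefSeq (GRCm38.p6). Figures used matplotlib 3.10.9 in Python 3.11.15.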

Additional observations from a re-analysis of the deposited data

How the results depend on the processing

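The number of members at an unadjusted p under 0.05 was 8 to 17 over the 13 alternatives, against 12 with all libraries and no block, while 3.57% to 14.4% of all genes were at that level in the same fits (12.1% without Ctrl replicate 2 and 14.0% without Ctrl replicate 3). The number of members called after adjustment was 0 except with the length correction and replicate block together (1, Kcnip2) and when Ctrl replicate 2 was left out (2, Kcng3 and Kcnip2). Of 73 members tested these are few, and the same 2 fits called 223 of 13570 and 122 of 13687 genes. Leaving out each library in turn gave 8 to 16 members at an unadjusted p under 0.05, 0 to 2 after adjustment, and 0 to 7 partner genes against 4. Of 29 partner genes tested, 8 were at that level with the length correction and 13 with the length correction and block. In those fits 10.6% and 14.4% of all genes were. Over the left-out libraries the medians ranged from 0.078 to 0.245 for Kv, 0.045 to 0.259 for Kir, -0.117 to 0.276 for K2P, 0.0228 to 0.233 for KCa and -0.118 to 0.0235 for auxiliary members, and with the length correction and block the K2P median was 0.0342. These estimates changed sign: Kcnn2 was 0.0020 with the length correction and block, and Kcnq3 0.091 with the block. Over the left-out libraries Kcnj11 ranged from -0.168 to 0.0507, Kcnj14 from -0.371 to 0.0015, Kcnj2 from -0.337 to 0.206, Kcnk1 from -0.232 to 0.113, Kcnk2 from -0.122 to 0.0396, Kcnn1 from -0.239 to 0.0661, Kcnn2 from -0.111 to 0.0503 and Kcnq3 from -0.314 to 0.346. The cause of these changes was not tested.

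Same-numbered libraries of the 2 groups deviated together with correlations of 0.088, 0.061 and 0.23 across genes, so the numbers were not taken to pair the samples. With the replicate block 17 members had an unadjusted p under 0.05 (15 higher, 2 lower), where 7.62% of all genes did, and 0 passed adjustment. Adjusted calls over all genes numbered 10 without the block and 11 with it, 10 with RLE, 99 with DESeq2, 112 with the length correction, 223 with the length correction and block, and 122 without Ctrl replicate 2.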
